A study of Homo sapiens with 6 samples.

Results

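The 9 keratin genes described here, KRT7, KRT8, KRT10, KRT15, KRT18, KRT19, KRT20, KRT23 and KRT80, were taken by name from the 39554 genes of the deposited count table. Of these, 7 are listed under their symbol. KRT20 and KRT23 are listed with a suffix that marks a copy on an alternate scaffold, and were matched by Entrez gene number. SW620 is an established human cell line grown from a metastasis of a colon adenocarcinoma. There were 3 libraries of cells given an siRNA against SOWAHA, which encodes an ankyrin repeat protein (siSOWAHA, genotype label SOWAHA knockdown), and 3 of cells given a control siRNA (siNC, genotype label WT). All 6 were transfected with the same reagent and collected after 72 h. One line stands for the tumour in both groups. The labels name neither the cultures behind the libraries nor the siRNA each siSOWAHA library was given. The p-values therefore rest on differences among 3 libraries of a group that could be technical repeats.

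Keratins are the intermediate filament proteins of epithelial cells. A filament is built from pairs of a type I (acidic) and a type II (basic) keratin, and a keratin without a partner is degraded, so the levels of both types are usually read together. Simple epithelia such as the intestinal lining carry the KRT8 and KRT18 pair with KRT19. KRT20 is added as enterocytes and goblet cells mature, and a KRT20-positive, KRT7-negative stain is the pathologist's usual signature of a colorectal tumour. KRT10 and KRT15 belong to stratified epithelia, KRT10 above the basal layer of the epidermis and KRT15 in its basal layer and in the hair follicle bulge.

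The 3 type II members are KRT7, KRT8 and KRT80, and the 6 type I members are KRT10, KRT15, KRT18, KRT19, KRT20 and KRT23. The families were compared in the coding sequence of the helix initiation motif, where the rod begins that winds a type I chain around a type II chain. The 42 bases found there in the GENCODE 29 transcript (GRCh38) are shown 5′ to 3′ on the coding strand for KRT80, of type II, and the 6 type I members, with capitals for the 13 bases that all 9 members share.
KRT80 (chr12:52185579-52191635, minus strand): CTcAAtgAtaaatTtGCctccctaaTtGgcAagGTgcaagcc
KRT10 (chr17:40822088-40822129, minus strand): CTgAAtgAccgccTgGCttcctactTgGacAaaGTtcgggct
KRT15 (chr17:41518453-41518494, minus strand): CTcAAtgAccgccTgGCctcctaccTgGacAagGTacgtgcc
KRT18 (chr12:52949432-52949473, plus strand): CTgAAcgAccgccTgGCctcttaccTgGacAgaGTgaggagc
KRT19 (chr17:41527948-41527989, minus strand): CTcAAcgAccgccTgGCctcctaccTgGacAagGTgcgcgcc
KRT20 (chr17:40884916-40884957, minus strand): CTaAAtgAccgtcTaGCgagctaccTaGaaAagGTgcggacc
KRT23 (chr17:40936328-40936369, minus strand): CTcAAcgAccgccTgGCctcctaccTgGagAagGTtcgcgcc
Pairs of the same type shared 28 to 40 of the 42 bases and pairs of different types 20 to 29. In the type I genes the window lay within 1 exon. In the type II genes an intron interrupted it, so that the KRT80 coordinates span 6057 bases. KRT18 is a type I gene that sits in the type II cluster on chromosome 12, next to its partner KRT8.

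Total gene counts were 49937395 to 55082095 in the siSOWAHA libraries and 53281242 to 59474396 in the siNC libraries. SOWAHA itself, the check of the labels, had 7.52, 6.84 and 8.95 CPM (CPM being a count scaled to a fixed library total with TMM factors) in the siSOWAHA libraries and 32.3, 39.3 and 33.8 CPM in the siNC libraries (log2 fold change -2.18, SE 0.105, edgeR adjusted p = 3.68e-09). Of the 17693 genes tested, 16.9% were called, that is, had a Benjamini-Hochberg adjusted p under 0.05 in edgeR's quasi-likelihood test, and 7.77% were called lower in siSOWAHA cells. An exact two-sided permutation test of a single gene cannot go below p = 0.1 with 3 against 3 libraries.

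Of the 9 members, all of which passed the filter on low counts, 5 fell and 0 rose in siSOWAHA cells, against the 7.77% of all tested genes that fell. The members that fell were KRT15, KRT23, KRT80, KRT19 and KRT8, in order of their fold. Their groups did not overlap in CPM, which was true, with siSOWAHA lower, of 16.3% of all tested genes. The median log2 fold change was -0.20 over the 9 members and -0.008 over all genes tested. The members were chosen with earlier results of these data known, and they were not matched to all tested genes by level. These comparisons with all genes are therefore descriptions and not tests. Of the 5 members that fell, KRT15 was the least abundant and stood at 52.9% of its siNC level, and KRT8 was the most abundant and stood at 91.9%. The 5 were chosen by the test, in which a low gene needs a larger fold to pass, and KRT7, KRT10 and KRT20 were also low and were not called.

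**Figure D1:**
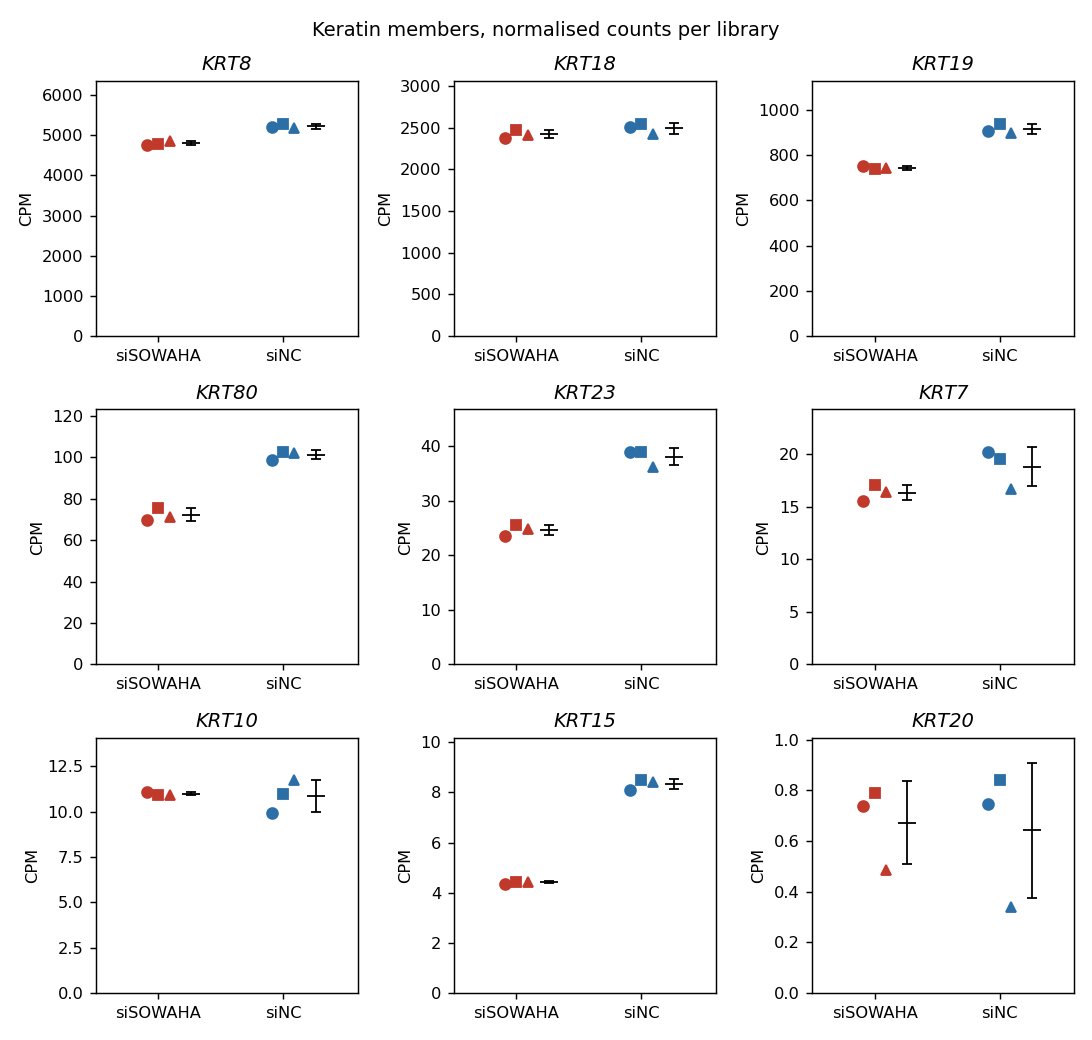
Normalised counts (CPM, linear axis from 0) of the 9 keratins in the 3 siSOWAHA libraries (red) and the 3 siNC libraries (blue), with the mean and SD beside each group; circle, square and triangle are replicates 1, 2 and 3. The groups are apart for KRT8, KRT19, KRT80, KRT23 and KRT15 and overlap for KRT18, KRT7, KRT10 and KRT20.

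KRT8, the type II keratin of simple epithelia, was the second most abundant of all genes tested by mean CPM. It had 4763, 4792 and 4855 CPM in the siSOWAHA libraries and 5218, 5294 and 5174 CPM in the siNC libraries. Every siSOWAHA library was below every siNC library, with means of 4803 ± 46.7 and 5229 ± 60.7 CPM (SD, n = 3 each). The log2 fold change was -0.12 (SE 0.019, edgeR adjusted p = 0.000369).

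KRT18, the type I partner of KRT8, ranked 14 among all genes. It had 2379, 2472 and 2405 CPM in the siSOWAHA libraries and 2501, 2548 and 2421 CPM in the siNC libraries. The groups overlapped, since siSOWAHA replicate 2 lay above siNC replicate 3. KRT18 was not called, with a log2 fold change of -0.04 and an interval of -0.09 to 0.006 at 2 SE (edgeR adjusted p = 0.276).

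KRT19, the smallest keratin and the other type I chain of simple epithelia, ranked 96. It had 752, 738 and 741 CPM in the siSOWAHA libraries and 908, 940 and 899 CPM in the siNC libraries. The siSOWAHA values lay close together and below all siNC values, with means of 744 ± 7.53 and 916 ± 21.7 CPM (SD, n = 3 each). The log2 fold change was -0.30 (SE 0.025, edgeR adjusted p = 1.11e-06). Whether KRT19 and KRT18 differed in their change was not tested.

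Because levels of different genes can be compared only per length, the balance of the types was read from the authors' FPKM values (fragments per length and depth). KRT8, KRT18 and KRT19 together made up 99.2% of the FPKM summed over the 9 members in each siSOWAHA library and 99.0% in each siNC library. The 6 type I members summed to 1984, 2008 and 1981 FPKM in the siSOWAHA libraries and 2173, 2227 and 2131 FPKM in the siNC libraries. The 3 type II members summed to 1983, 1973 and 2009 FPKM in the siSOWAHA libraries and 2184, 2218 and 2180 FPKM in the siNC libraries. Both pools were thus lower in every siSOWAHA library, and they stayed near equal: the ratio of type I to type II FPKM was 1.001, 1.018 and 0.986 in the siSOWAHA libraries and 0.995, 1.004 and 0.978 in the siNC libraries.

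Within the type I pool the shares shifted. KRT19 made up 25.3%, 24.2% and 24.8% of type I FPKM in the siSOWAHA libraries and 27.9%, 28.2% and 28.4% in the siNC libraries. KRT18 made up 74.7% ± 0.537 in siSOWAHA cells and 71.1% ± 0.245 in siNC cells (SD, n = 3 each). The ratio of KRT18 to KRT8 FPKM was 0.750, 0.774 and 0.744 in the siSOWAHA libraries and 0.720, 0.722 and 0.702 in the siNC libraries, with no overlap. Both ratios are descriptions, with no test, and FPKM depends on the transcript length the authors assumed.

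**Figure D2:**
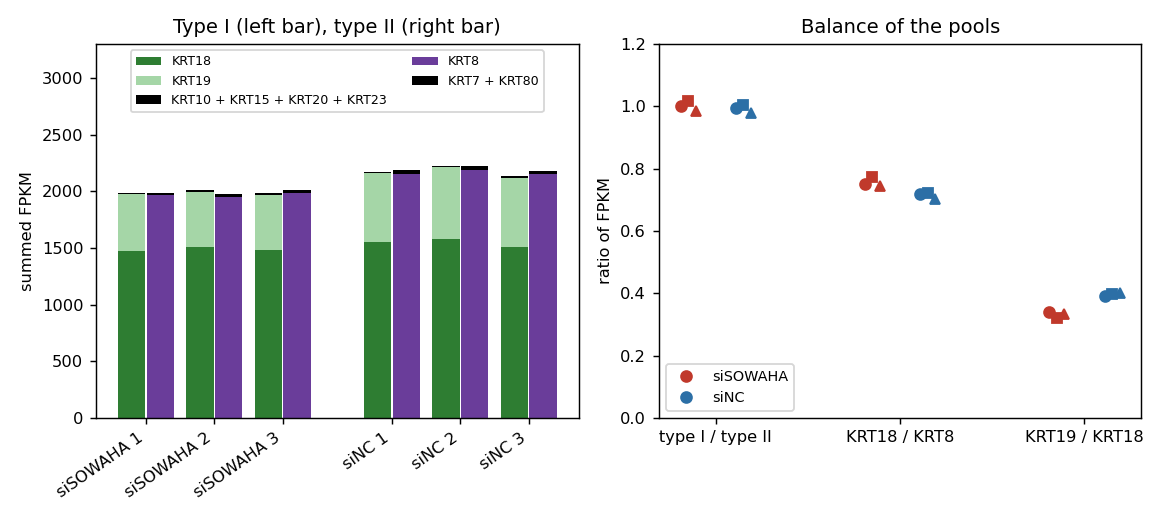
Left, summed FPKM of the type I members (left bar) and type II members (right bar) in each library, siSOWAHA first; KRT10, KRT15, KRT20, KRT23, KRT7 and KRT80 are the thin black caps. Right, ratios of FPKM in each library (red siSOWAHA, blue siNC; circle, square and triangle are replicates 1, 2 and 3): type I to type II is near 1 in all 6, KRT18 to KRT8 is higher and KRT19 to KRT18 lower in all 3 siSOWAHA libraries.

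KRT80, a type II keratin found near desmosomes, was the next most abundant. It had 69.97, 75.7 and 71.3 CPM in the siSOWAHA libraries and 98.8, 102.6 and 102.3 CPM in the siNC libraries. All siSOWAHA libraries were below all siNC libraries, by a mean of 28.6%, with a log2 fold change of -0.49 (SE 0.044, edgeR adjusted p = 2.43e-06). Its share of type II FPKM was 0.761% ± 0.032 in siSOWAHA cells and 0.976% ± 0.021 in siNC cells (SD, n = 3 each).

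KRT23, a type I keratin first described as induced by inhibitors of histone deacetylases, had 23.6, 25.5 and 24.9 CPM in the siSOWAHA libraries and 39.0, 39.0 and 36.3 CPM in the siNC libraries. No siSOWAHA library reached the lowest siNC library. The log2 fold change was -0.63 (SE 0.063, edgeR adjusted p = 6.67e-06), the second steepest fall among the members.

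KRT15 had the steepest fall of the members. It had 4.36, 4.43 and 4.44 CPM in the siSOWAHA libraries and 8.10, 8.48 and 8.42 CPM in the siNC libraries. The raw counts behind these were 218, 241 and 237 in the siSOWAHA libraries and 434, 505 and 497 in the siNC libraries. Replicates lay close together and the groups far apart, with a log2 fold change of -0.92 (SE 0.128, edgeR adjusted p = 0.000143). On the FPKM scale KRT15 stood at 1.36 ± 0.008 in siSOWAHA cells and 2.60 ± 0.065 in siNC cells (SD, n = 3 each), or 0.068% and 0.119% of the type I pool.

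Of the remaining members, KRT7, the type II keratin of ductal epithelia, had 15.6, 17.1 and 16.4 CPM in the siSOWAHA libraries and 20.2, 19.5 and 16.7 CPM in the siNC libraries. The groups overlapped through siNC replicate 3, and KRT7 was not called (log2 fold change -0.20, SE 0.089, unadjusted p = 0.0377, edgeR adjusted p = 0.145). KRT10 had 11.1, 10.9 and 10.9 CPM in the siSOWAHA libraries and 9.93, 10.96 and 11.7 CPM in the siNC libraries. Its siSOWAHA values fell inside the siNC range, and the log2 fold change was 0.01 with an interval of -0.19 to 0.22 at 2 SE (edgeR adjusted p = 0.958).

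KRT20, the keratin of mature enterocytes, had few counts in these libraries. It is listed as a copy on an alternate scaffold, and whether that lowered its count or FPKM was not tested. It had 37, 43 and 26 raw counts in the siSOWAHA libraries and 40, 50 and 20 in the siNC libraries, below 1 CPM in all 6. Its interval at 2 SE ran from -0.82 to 0.95 on the log2 scale, so a change of less than about that size was not detectable at this depth (edgeR adjusted p = 0.948). In these values KRT7 was above KRT20, also per length. FPKM was 5.16 ± 0.210 for KRT7 and 0.166 ± 0.040 for KRT20 in siSOWAHA cells. In siNC cells it was 6.02 ± 0.574 for KRT7 and 0.160 ± 0.067 for KRT20 (SD, n = 3 each).

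In the FPKM table, tested with limma on log2(FPKM + 1), 8 members passed the filter (KRT20 did not). Of these, the same 5 were called lower and 0 higher, against 10.8% of the 12027 genes tested there that were called lower. The fall of KRT15 was 0.61 on that scale, on which a low gene's change is understated. With no filter on FPKM, KRT8 was not called (limma adjusted p = 0.0854), and without siNC replicate 3 KRT7 was called lower as well (0.0305). Both tables come from the same reads.

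Beyond the members, the count table held keratins of stratified epithelia and of hair. Of 55 keratin genes with a row, 31 had a count and 19 were tested. Of the 10 tested keratins that are no member, 3 fell and 0 rose, against the 7.77% of all tested genes that fell. All 3 are hair keratins of the type II cluster. KRT81 had 3.88, 2.96 and 2.32 CPM in the siSOWAHA libraries and 6.24, 7.72 and 6.19 CPM in the siNC libraries (log2 fold change -1.14, SE 0.189, edgeR adjusted p = 0.000653). KRT86 averaged 5.08 ± 0.431 CPM in siSOWAHA cells and 7.87 ± 0.284 CPM in siNC cells (SD, n = 3 each; log2 fold change -0.63, edgeR adjusted p = 0.0037). KRT83, at 8, 16 and 14 raw counts in the siSOWAHA libraries and 33, 29 and 66 in the siNC libraries, had an edgeR adjusted p of 0.0445, and was not called without siNC replicate 3 (0.287), siNC replicate 1 (0.0849) or siSOWAHA replicate 1, 2 or 3 (0.114, 0.0772 and 0.0937).

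KRT81 and KRT86 share an exact coding run of 605 bases. Of the 1899 windows of 31 bases in the KRT81 transcript, 53.2% occur in transcripts of another gene. KRT86 holds 820 of them and KRT83 350, so the counts of these 3 genes are uncertain as separate values. The list of other epithelial keratins, which holds those of stratified epithelia and also KRT222, had 0 called of 5 tested and a median log2 fold change of -0.26. By the mean over all 6 libraries the highest were KRT17 and KRT5, at 2.91 and 0.697 mean CPM in siSOWAHA cells, and 3.49 and 0.845 mean CPM in siNC cells. KRT14, the usual partner of KRT5, was at 0 in all libraries, as was KRT1, the partner of KRT10.

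**Figure D3:**
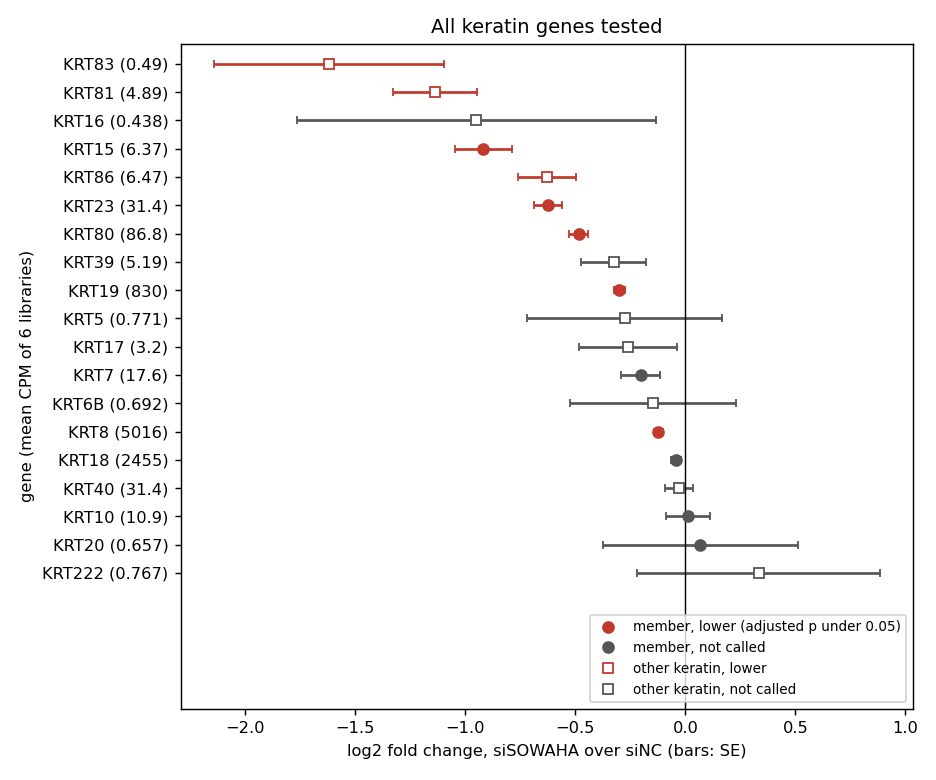
Log2 fold change (siSOWAHA over siNC, bars are 1 SE) of the 19 keratin genes tested, with mean CPM over 6 libraries in parentheses; filled circles are the 9 members, open squares other keratins, red those called lower. The 8 called genes all lie left of 0, and the widest bars belong to genes below 1 CPM.

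Sequence shared between genes bears on how far each count belongs to its gene. Of the 31-base windows of the transcripts, 74.1% for KRT18 and 62.0% for KRT8 also occur in transcripts of another annotated gene, most of all KRT18P11 for KRT18 and KRT8P3 for KRT8, both pseudogenes. Of the 1390 windows of KRT18, 355 occur in KRT18P11 and 345 in annotated transcripts of KRT8 itself, which overlaps KRT18, and the part of this overlap in the ratio of KRT18 to KRT8 was not tested. The share was 14.3% for KRT7, 11.4% for KRT19, 6.85% for KRT23, 1.75% for KRT15, 1.49% for KRT80 and 1.48% for KRT10, and 0 windows of KRT20 were shared. A copy under the same gene name did not count as another gene. The shares of KRT20 and KRT23 therefore leave out their alternate-scaffold copies. Of 3 pseudogene rows of members in the count table, 1 had a count, KRT8P41, with at most 12 in a library. Of the members that fell, KRT8 thus shares the most sequence with other genes and KRT80 and KRT15 the least.

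By position in the authors' GRCh38 coordinates, KRT15 (chromosome 17, 41513745 to 41521924, minus strand) lies 1.69 kb from KRT19 (41523617 to 41528308, minus strand), and both fell. KRT8 (chromosome 12, 52897191 to 52949860, minus strand) overlaps KRT18 (52948855 to 52952906, plus strand) by 1006 bases on the opposite strand. KRT7 (52233243 to 52252667, plus strand) and KRT80 (52168996 to 52192014, minus strand) lie at the other end of the same cluster. KRT10 (chromosome 17, 40818117 to 40822614, minus strand) lies inside the type I cluster, whose keratin genes start at 40654665. Of the genes tested within the span of the chromosome 12 cluster, 5 of 9 keratins fell and 0 of 3 other genes were called, with median log2 fold changes of -0.28 for the keratins and -0.22 for the other genes. Within that of chromosome 17, 3 of 10 keratins fell and 1 of 8 other genes, the hair keratin-associated gene KRTAP3-1, was called lower, with medians of -0.28 and -0.14. Of all tested genes 7.77% fell, and whether keratins differed from their neighbours was not tested. The antisense genes KRT7-AS (log2 fold change -0.45, edgeR adjusted p = 0.217) and KRT10-AS1 (-0.03, edgeR adjusted p = 0.902) were not called. The strand setting of the counting is not given in the sources used here, so reads of such overlaps cannot be assigned with certainty.

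In the longest annotated 3′ UTR of each member, 0 of 9 carried the heptamers AGATTTC or GATTTCA and 0 of 9 carried TCGGAGA or CGGAGAA, searched on the transcript strand. Over all 18805 genes scanned, 21.95% carried one of the first pair and 3.87% one of the second. The shares were not matched for UTR length. The members' UTRs were 126 to 466 bases long, except for KRT8 (2190) and KRT80 (2527). These heptamers came from an earlier scan of fold changes in the same libraries, so the counts are a description of the members only.

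Filaments of other classes and the structures that anchor keratins were read from lists of genes, whose counts stand beside the 16.9% of all tested genes that were called in either direction. Of 11 other intermediate filament genes tested, 4 fell and 1 rose (list median -0.09). Vimentin, VIM, the filament of mesenchymal cells and of many carcinoma lines, fell to 172 ± 8.33 CPM in siSOWAHA cells, against 205 ± 5.46 CPM in siNC cells (SD, n = 3 each; log2 fold change -0.25, edgeR adjusted p = 0.000383). Nestin, NES, rose (0.20, edgeR adjusted p = 0.000918). Desmin, DES, at about 1 CPM (-1.11), and the lamin gene LMNA (-0.11) were called with edgeR adjusted p of 0.0241 and 0.0307, and neither call was stable. DES lost it without siSOWAHA replicate 2 or 3 (edgeR adjusted p = 0.0719 and 0.0713) or siNC replicate 2 or 3 (0.0939 and 0.115). LMNA lost it without siSOWAHA replicate 2 or 3 (edgeR adjusted p = 0.126 and 0.13) or siNC replicate 1, 2 or 3 (0.0732, 0.146 and 0.0544).

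Of 16 genes of desmosomes, hemidesmosomes and plakins, which tie keratin filaments to the membrane, 5 fell and 1 rose. Plectin, PLEC, the linker of keratins to hemidesmosomes, had 431, 363 and 401 CPM in the siSOWAHA libraries and 547, 561 and 575 CPM in the siNC libraries (log2 fold change -0.49, SE 0.054, edgeR adjusted p = 0.000261). The hemidesmosomal integrin ITGB4 fell as well (-0.37, edgeR adjusted p = 6.84e-05), and so did the plakophilin PKP4 (-0.18, edgeR adjusted p = 0.00214). PERP, a tetraspan membrane protein of desmosomes, rose to 575 ± 28.98 CPM in siSOWAHA cells, against 428 ± 3.46 CPM in siNC cells (SD, n = 3 each; 0.43, edgeR adjusted p = 4.96e-07).

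Of 16 keratin-binding and assembly genes, 3 rose and 3 fell. The small heat shock protein HSPB1 (0.28, edgeR adjusted p = 0.000105) and the 14-3-3 protein YWHAH (0.15) rose. DNAJB6, a co-chaperone that binds KRT18 (-0.25, edgeR adjusted p = 0.000146), and FAM83H, which recruits casein kinase to keratin filaments (-0.24), fell. Of 18 tested regulators of keratin genes, 1 rose and 3 fell, a share near the 16.9% over all genes. The AP-1 subunit FOSL1 (-0.33, edgeR adjusted p = 0.000678) and the intestinal factor CDX2 (-0.44, edgeR adjusted p = 0.000875) fell. SP1 (-0.13) and SP3 (0.11), at edgeR adjusted p of 0.0259 and 0.0388, lost their calls without siSOWAHA replicate 2 or 3 or any 1 siNC library, with edgeR adjusted p of 0.0576 to 0.0966 for SP1 and 0.065 to 0.121 for SP3.

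**Figure D4:**
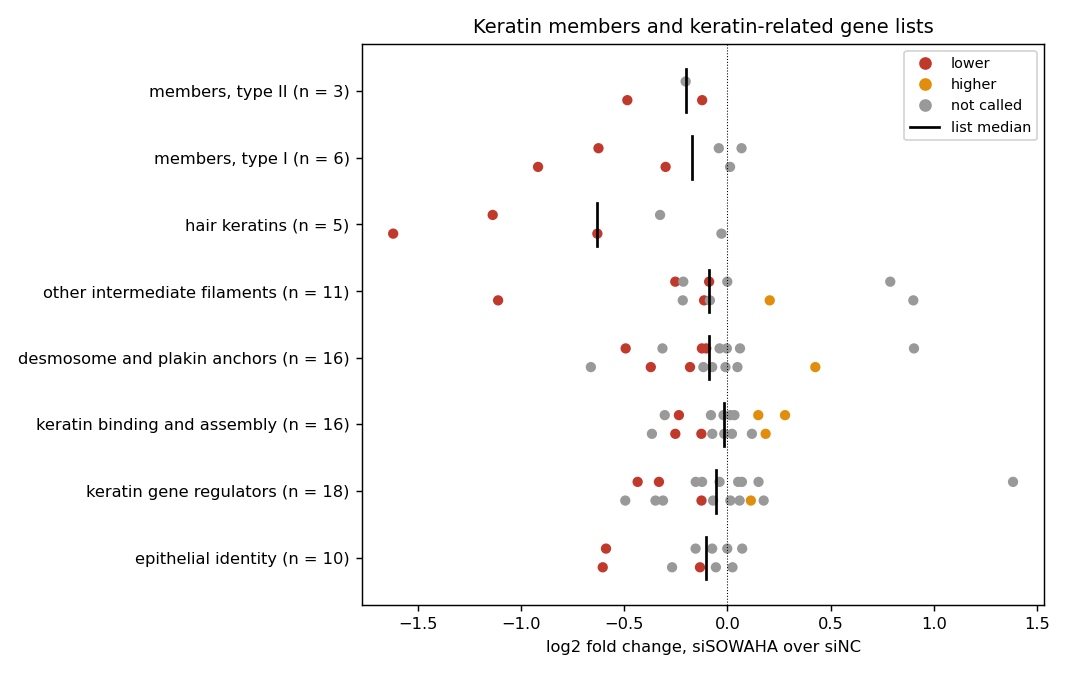
Log2 fold change (siSOWAHA over siNC) of each tested gene in the keratin members and related lists; red is lower, orange higher, grey not called, and the black bar is the list median. The type I and type II members have medians of -0.17 and -0.20, the hair keratins -0.63, and the other 5 lists drawn here lie between -0.10 and -0.02.

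The epithelial identity of the cells was plain in both groups. EPCAM was among the 7 listed epithelial genes that were not called. It had 398 ± 2.15 CPM in siSOWAHA cells and 398 ± 5.54 CPM in siNC cells (SD, n = 3 each). The 10 epithelial genes listed summed to 1348 to 1379 CPM in the siSOWAHA libraries and 1400 to 1421 CPM in the siNC libraries. Of these 10, 3 fell and 0 rose, with CDH17, an intestinal cadherin, at -0.59 (edgeR adjusted p = 3.52e-05). CLDN7 (-0.60) and CDH1 (-0.13) were also called, at edgeR adjusted p of 0.0193 and 0.0408, and neither call was stable. CLDN7 lost it without siSOWAHA replicate 1 or 3 or siNC replicate 1 or 2 (edgeR adjusted p of 0.0508 to 0.0825), and CDH1 without any 1 siSOWAHA library or siNC replicate 2 or 3 (0.0566 to 0.193).

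Of the markers of other cell types, those of fibroblasts had the highest summed level, most of it LUM. The summed level of 13 stratified squamous markers in the table was 1.12 to 2.17 CPM in the siSOWAHA libraries and 1.16 to 2.03 CPM in the siNC libraries, with TP63, DSG3 and IVL at 0, and 0 of 3 tested were called. Fibroblast markers summed to 80.4 to 93.7 CPM in the siSOWAHA libraries and 70.6 to 77.5 CPM in the siNC libraries, with 1 of 6 tested called, LUM (0.32, edgeR adjusted p = 0.00051), at 76.4 mean CPM in siSOWAHA cells and 61.1 in siNC cells. Leukocyte markers summed to 11.7 to 13.9 CPM in the siSOWAHA libraries and 13.2 to 14.9 CPM in the siNC libraries, with 0 of 4 tested called and PTPRC and CD3E at 0. Endothelial markers summed to 1.61 to 2.88 CPM in the siSOWAHA libraries and 1.69 to 2.73 CPM in the siNC libraries, with 0 of 2 tested called and CDH5 and TEK at 0. Whether the rise of LUM has a part in the keratin values was not tested.

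The genes whose log2 CPM followed KRT15 most closely over the 6 libraries were PRF1 (Pearson r = 0.9997), CHKB (0.999) and VPS36 (0.998), out of 11302 genes whose mean reached 5 CPM. For KRT8 they were CYP2B6 (0.998), RPS6KA4 (0.997) and IFITM3 (0.997). With 2 groups of 3 libraries, any gene that differs between groups as cleanly will score high, and 436 genes reached an r above 0.95 with KRT15.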

How the data were processed

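Poly(A) RNA of 3 siSOWAHA and 3 siNC libraries was read in pairs of 150 nt, per the labels' protocols. The submitters' processing notes list cutadapt 1.9, FastQC and GRCh38. Aligner, counter and gene annotation: not given in the sources used here. Raw counts were deposited by the authors for 39554 Entrez gene IDs, with FPKM values for 24901. RefSeq symbols matched 95.9% of IDs.

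Counts went through edgeR 4.0.16 under R 4.3.3, with filterByExpr, TMM factors and the robust quasi-likelihood test (two-sided). Adjusted p-values are Benjamini-Hochberg values over all 17693 genes, called under 0.05. Each SE is the size of the log2 fold change divided by the square root of F. The FPKM values were tested with limma 3.58.1 on log2(FPKM + 1), keeping genes with at least 1 FPKM in 3 or more libraries. Only the edgeR fit was tested on simulated data. Replicates differed beyond sampling noise (chi-square per degree of freedom 8.26 to 15.4).

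Alternatives covered scaling, filters, the robust step, DESeq2 1.42.0, limma-voom, a replicate block, each library left out, and the FPKM pseudocount. Members and gene lists were chosen with earlier results of these data known. Besides the members, the genes named were up to 4 called ones per list by smallest adjusted p (up to 2 of the most abundant where none was called) and the 3 most like KRT15 and KRT8. EPCAM, which was not called, stands outside this rule. Sequences were read from GENCODE 29 with Biopython 1.88. A few items withheld for evaluation are not reported here.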

Additional observations from a re-analysis of the deposited data

How the results depend on the processing

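In the fits to the counts, the calls of the 9 members were the same in all 133 combinations of member and alternative that gave an adjusted p. The same 5 members were called lower in each edgeR, DESeq2 and limma-voom setting. The fits to FPKM values are not among the 133, and some of them changed a call. KRT15 ranged from -0.94 to -0.91, KRT23 from -0.66 to -0.59, KRT80 from -0.52 to -0.46, KRT19 from -0.32 to -0.28 and KRT8 from -0.14 to -0.11 on the log2 scale. With the 1 CPM filter KRT20 was not tested, and DESeq2 gave it no adjusted p. Over all genes, 1978 to 2678 were called with each library left out, against 2988 with all, and the lowest count came without siNC replicate 3. From FPKM values, the genes called numbered 1408 to 2020 with each library left out and 1423 with no filter, against 2408; the fewer samples or added genes are part of each setting. Members called there numbered 5 to 6 with each library left out, with KRT7 the sixth without siNC replicate 3, and 4 with no filter, which lost KRT8. The fall in the KRT19 share of type I FPKM, -3.43 percentage points, lay between -3.69 and -3.15 with each library left out and was -3.21 in counts. With the replicate number as a block, 2599 genes and the same 5 members were called in edgeR, and 1880 genes and 5 members in the FPKM table. Same-numbered libraries of the 2 groups deviated with correlations of -0.145, -0.040 and 0.070, and differently numbered ones with -0.165 to 0.175. These values cannot decide whether same-numbered libraries were handled together. Of 24 other named genes, 7 lost a call in some setting (KRT83, DES, LMNA, SP1, SP3, CLDN7 and CDH1), and none changed direction. Depth limits KRT20 and KRT83.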
